A study of Mus musculus with 11 samples.

Results

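Small intestine of mice labelled HLJDD was compared with small intestine of mice labelled HFD, 4 libraries against 4, by RNA sequencing. These are 8 of the 11 libraries of the series, whose other 3 are labelled ND. Every gene with at least 1 FPKM (fragments per kilobase of gene, divided by library size) in at least 3 of the 8 libraries was tested, which were 10443 of 24294 gene symbols. Gastric inhibitory polypeptide, obesity and lipid metabolism appear in the series title beside Huang Lian Jiedu Decoction, a herbal preparation whose initials the HLJDD group bears. The labels used here do not spell out HFD and ND, name no strain, age, dose or duration, and do not say what the HLJDD mice were fed or which stretch of the small intestine was taken. They also do not say that each library is a separate animal, so every p-value rests on a spread between libraries that may be technical.

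The small intestine breaks down dietary fat, rebuilds it inside enterocytes and exports it as chylomicrons. Its enteroendocrine cells read the meal and release hormones, among them gastric inhibitory polypeptide from K cells, which strengthens insulin release and is also known to act on fat tissue. Lymphocytes between the enterocytes release interferon-gamma, which in epithelium switches on antigen processing genes. Huang Lian Jiedu Decoction contains berberine-rich plants and is used as an anti-inflammatory remedy.

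The libraries held 30101888 to 37943272 reads, worked out from the FPKM steps, so that a gene of 1 kb at 1 FPKM rested on 30.1 to 37.9 reads. Mitochondrial transcripts took 12.7% to 32.4% of the reads in HFD and 10.4% to 40.7% in HLJDD, with the highest shares in HFD replicate 1 and HLJDD replicate 2 (group means 20.1% and 19.1%, exact permutation p = 0.857, two-sided). Because FPKM divides by all reads, levels below were rescaled by each library's median ratio to the geometric mean of the 8 libraries and are called scaled FPKM. Among the lists of cell type markers, mature enterocyte genes had the largest sums of scaled FPKM in both groups. These ran from 61841 to 77612 in HFD and from 49268 to 66068 in HLJDD. The ileal gene Fabp6 reached at most 5.41 scaled FPKM in these 8 libraries. The first principal component (37.0% of the variance) ran from -21.7 to 32.1 over the HFD libraries and held the HLJDD libraries between -13.5 and 11.2, so the groups were not separated along it.

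No gene passed. By limma on log2(scaled FPKM + 1), 0 of 10443 genes (0%) had an adjusted p under 0.05 after Benjamini-Hochberg adjustment, and the smallest adjusted p was 0.558, shared by Gip and Scd1. Without adjustment 465 genes (4.45%) had a p under 0.05, no more than the share of 0.05 expected with no difference in any gene. They were 207 genes higher in HLJDD (1.98% of all genes) and 258 lower (2.47%). This split moved with the scaling, to 56 and 63 as deposited, 36 and 19 with equal sums, and 600 and 77 with equal sums that leave out mitochondrial transcripts, where the median of all genes was 0.083. In 220 genes (2.11%) all 4 HLJDD libraries lay above all 4 HFD libraries, and in 180 (1.72%) all lay below. These shares are the background for every count below. Groups described as apart or without overlap are so in scaled FPKM, and not always as deposited. Through HFD libraries alone 17 genes passed the filter, with no HLJDD library at 1 FPKM, and 26 passed through HLJDD alone, and such a gene had to differ. The median difference of all genes was -0.00070 on the log2 scale, the median standard error was 0.13, and 25 genes differed by more than 1 in either direction. Levels below are means ± SD with n = 4 per group, and differences are HLJDD minus HFD on the log2(scaled FPKM + 1) scale, which understates the difference of low genes. Since nothing passed, "higher" and "lower" below describe measured means and are not calls. Apart from Gip and Scd1, every gene named below had a limma adjusted p between 0.92 and 0.988.

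**Figure D1:**
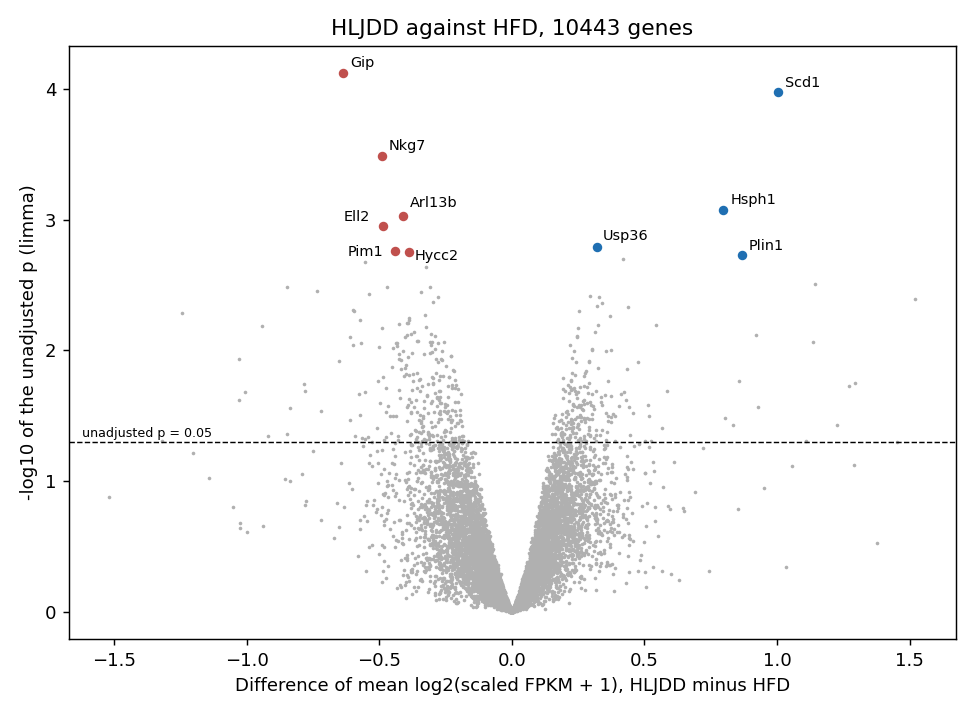
Difference of mean log2(scaled FPKM + 1), HLJDD minus HFD, against -log10 of the unadjusted limma p for 10443 genes (grey points), with the 10 genes of smallest p coloured blue where higher and red where lower in HLJDD. Gip and Scd1 stand highest, and 465 genes lie above the dashed line, which marks the unadjusted threshold of 0.05.

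Gip, the gene of the incretin hormone of K cells (mm10 chromosome 11, 96024532 to 96030831), had the smallest p of all genes on the median-ratio scale. It ranked 2 with quantile normalization, 6 with equal sums without mitochondrial transcripts, 29 as deposited, 66 with equal sums, where its unadjusted p was above 0.05, and 174 when all 11 libraries were fitted. The HFD libraries held 102.6, 104.9, 100.1 and 103.6 scaled FPKM and the HLJDD libraries 64.9, 64.1, 74.7 and 60.1. The groups did not overlap, and the HFD libraries hardly differed among themselves. The means were 103 ± 2.05 and 65.9 ± 6.21, a ratio of 0.641 and a log2 difference of -0.64 (SE 0.091, limma adjusted p = 0.558). By exact permutation of the 8 libraries (two-sided) the difference in means had p = 0.0286, which is the smallest value 70 arrangements can give. Each of the 220 higher and 180 lower genes without overlap would get the same value. The Gip pattern was known from earlier results of these data, so this p is no independent support. As deposited, without rescaling, the levels were 81.8, 109.1, 103.9 and 108.2 in HFD and 72.9, 50.5, 88.8 and 63.5 in HLJDD, where the lowest HFD library lay below the highest HLJDD library. That scale gave means of 100.7 ± 12.8 and 68.9 ± 16.1 FPKM and an exact permutation p of 0.0571. The ND libraries held 16.3, 26.2 and 43.8 scaled FPKM, below every HLJDD library. They also held far more of the ileal gene Fabp6 (8506, 5689 and 359.5). The stretch of gut and the ND label can therefore not be told apart, here or in any ND level below. Less Gip RNA per K cell and fewer K cells cannot be told apart in whole tissue, and this holds for every cell type named below. The 250 bases before the Gip transcript start at 96024545 (RefSeq, GRCm38.p6, chr11:96024295-96024544, plus strand) are shown because this gene stood first on that scale. This start lies 13 bases inside the gene span given above. Capitals mark AGATAA, a motif of GATA factors, which drive hormone genes of the upper gut, searched on both strands.
Gip: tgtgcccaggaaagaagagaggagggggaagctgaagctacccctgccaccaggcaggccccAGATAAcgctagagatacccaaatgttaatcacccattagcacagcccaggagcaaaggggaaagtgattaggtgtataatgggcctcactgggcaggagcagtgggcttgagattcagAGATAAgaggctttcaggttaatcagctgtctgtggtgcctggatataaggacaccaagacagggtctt
AGATAA occurred 2 times, 188 and 69 bases before that transcript start, and 11.4% of the 27025 genes in the RefSeq promoter table hold it in the same window. Of the 17 tested enteroendocrine hormone and granule genes in that table, 5 hold it (29.4%), namely Gip, Cck, Nts, Tac1 and Scg2.

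Of 18 enteroendocrine hormone and granule genes tested, Gip was the 1 with an unadjusted p under 0.05, against 258 of all genes in that direction (2.47%). With equal sums it was 0, without 1 library up to 3 (without HFD replicate 1), and 2 without HFD replicate 2 or 3 or HLJDD replicate 2 or 3, all lower. By mean, 16 of the 18 had a lower mean in HLJDD, and the list's median difference was -0.17, between -0.32 (without HFD replicate 1) and -0.13 (without HFD replicate 3) when 1 library was left out. Leaving out HFD replicate 1 and HLJDD replicate 2 together, the libraries with the most mitochondrial reads, gave a median of -0.28 with 5 members at an unadjusted p under 0.05, all lower. Chga, the granule protein chromogranin A that most enteroendocrine cells make, stood at 34.4, 31.2, 40.9 and 46.3 in HFD and 26.9, 35.5, 25.1 and 32.0 in HLJDD (log2 difference -0.34, SE 0.15). Its groups overlapped, and its ratio of means was 0.781. Nts, the neurotensin gene, stood at 66.4 ± 26.3 and 42.1 ± 24.0 and Pyy, the peptide YY gene of L cells, at 4.84 ± 2.71 and 3.95 ± 3.46, both with overlapping groups. Scg5, a granule chaperone of prohormone convertase, was at 1.09 ± 0.21 and 0.778 ± 0.19 (log2 difference -0.23, SE 0.11) and Scg3, a granule sorting protein, at 1.45 ± 0.49 and 1.03 ± 0.43.

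In 5 further hormone genes the means differed by less than the larger SD of the groups. Sst, the somatostatin gene of D cells, was at 17.99 ± 8.45 and 18.3 ± 4.17. Gcg, which encodes the GLP-1 precursor, was at 4.78 ± 3.44 and 4.997 ± 0.72. Cck, the cholecystokinin gene of I cells, was at 5.09 ± 2.53 and 4.62 ± 1.16, Sct, the secretin gene of S cells, at 46.4 ± 16.3 and 39.9 ± 14.1, and Ghrl, the ghrelin gene, at 10.6 ± 0.95 and 9.38 ± 2.25. Their unadjusted p ran from 0.268 to 0.9. The low values of Gcg (1.12) and Sst (5.96) both belonged to HFD replicate 1, and without it both differences turned negative (-0.15 and -0.28). The sign of Cck also turned with the scaling and with single libraries, and that of Pyy without HLJDD replicate 4.

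Scd1, the desaturase that makes oleate from stearate (chromosome 19, 44394450 to 44407709), stood second, and ranked 1 to 8 in the other fits. Its HFD libraries held 19.9, 15.2, 16.0 and 16.8 scaled FPKM and its HLJDD libraries 38.3, 25.9, 40.6 and 36.7, with no overlap. The means were 17.0 ± 2.03 and 35.4 ± 6.51, a ratio of 2.08 and a log2 difference of 1.00 (SE 0.15, limma adjusted p = 0.558). Scd1 passed the threshold when HFD replicate 1 and HLJDD replicate 2 were left out together (log2 difference 1.22, limma adjusted p = 0.0197) and not when any 1 library was left out (adjusted p from 0.0762 to 0.997). ND stood at 11.02, 8.90 and 6.83, below all HFD libraries.

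Scd1 belongs to 15 tested genes of fatty acid synthesis and desaturation, of which 3 had an unadjusted p under 0.05 with a higher mean in HLJDD (1.98% of all genes did) and 0 with a lower one. All but 1 of the 15 had a higher mean, with a median difference of 0.19 that was 0.041 without HFD replicate 1. Fasn, the fatty acid synthase, was at 1.61, 2.71, 2.40 and 2.09 in HFD and 3.15, 3.43, 3.61 and 3.05 in HLJDD, again without overlap (log2 difference 0.44, SE 0.12). Thrsp, a lipogenic regulator also called Spot 14, was at 1.32, 3.67, 1.60 and 0.863 in HFD and 3.07, 6.81, 4.35 and 2.14 in HLJDD (log2 difference 0.84, SE 0.34), and its groups overlapped. Acly, which makes cytosolic acetyl-CoA from citrate (3.05 ± 0.22 and 3.63 ± 0.50, log2 difference 0.19, SE 0.10), and Acss2, which makes it from acetate (7.16 ± 1.71 and 8.27 ± 0.75, log2 difference 0.20, SE 0.15), differed less.

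Fat cell genes differed in the same libraries. Of 13 adipocyte genes tested, 10 had a higher mean in HLJDD and 3 a lower one, 7 had an unadjusted p under 0.05, all higher, and their median difference was 1.11, the largest of the 18 lists plotted here. Plin1 passed the filter through HLJDD alone. Without the filter 11 of 14 were higher, 5 at an unadjusted p under 0.05 (1.69% of all 23588 genes then tested), with a median of 0.99. The 7 became 4 without HFD replicate 1, 3 or 4 or without HLJDD replicate 1, 2 or 3, and 9 without HFD replicate 2 or HLJDD replicate 4, and the median was 0.70 without HLJDD replicate 2. Without HFD replicate 1 and HLJDD replicate 2 it was 0.52, with 3 members at an unadjusted p under 0.05. Adipoq, the adiponectin gene, was at 1.73, 7.91, 6.73 and 4.34 in HFD and 11.8, 25.4, 12.8 and 6.78 in HLJDD (log2 difference 1.29, SE 0.44). Lep, the leptin gene, was at 0.254, 1.22, 1.03 and 0.970 in HFD and 3.43, 2.67, 5.36 and 1.57 in HLJDD, with no overlap (log2 difference 1.14, SE 0.28). Plin1, which coats the lipid droplet of fat cells and is 1 of the 10 genes of smallest p, was at 0.0191, 0.828, 0.527 and 0.572 in HFD and 1.35, 2.27, 1.87 and 1.25 in HLJDD (log2 difference 0.87, SE 0.20). The HFD replicate 1 value of Plin1 is 1 read. Retn, the resistin gene, had means of 1.46 ± 0.81 and 6.57 ± 3.79 (log2 difference 1.52, SE 0.39) and Lpl, the lipoprotein lipase, 8.28 ± 5.12 and 20.6 ± 10.5 (log2 difference 1.22, SE 0.50). The 3 members with a lower mean, named after their values were seen, were Pck1, which makes phosphoenolpyruvate (log2 difference -0.41), Slc2a4, the GLUT4 gene (-0.16), and Pparg, the fat cell regulator PPAR-gamma (-0.11).

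HFD replicate 1 was the lowest HFD library for Adipoq, Lep, Plin1 and Lpl, and HLJDD replicate 2 was the highest HLJDD library for Adipoq, Retn, Plin1 and Lpl. Summed over the 14 listed genes that the table holds, scaled FPKM ran from 268.9 to 359.7 in HFD and from 370.5 to 610.3 in HLJDD. Most of this sum came from listed genes whose levels are not given here. Lpl, the highest of the adipocyte genes with levels above, had means of 8.28 and 20.6. No listed adipocyte gene was at 0 in all 8 libraries. Adipocytes also make Scd1, Fasn and Thrsp, and the part of fat cells in the differences of these 3 genes was not tested. Ordered by Scd1, the HFD libraries stood in the reverse of their order by Adipoq. In HLJDD, replicates 4, 1 and 3 stood in the same order by both genes, and replicate 2 had the most Adipoq and the least Scd1. Thrsp was highest in replicate 2 of each group, as Adipoq was.

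**Figure D2:**
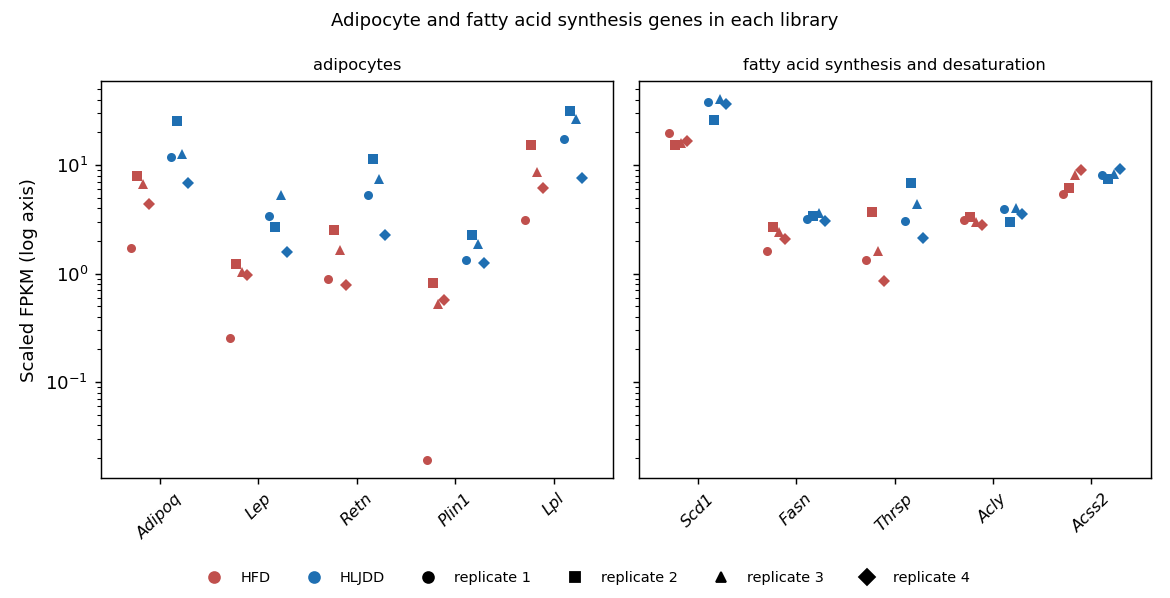
Scaled FPKM on a log axis of 5 adipocyte genes and 5 fatty acid synthesis genes in each HFD (red) and HLJDD (blue) library, with a marker shape for each replicate number, which only names a library. The adipocyte genes vary within the groups, from 1.73 to 7.91 in HFD and 6.78 to 25.4 in HLJDD for Adipoq, and Scd1 lies between 15.2 and 19.9 in HFD and between 25.9 and 40.6 in HLJDD.

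The lists of sterol synthesis and of fat absorption had small median differences. Among 25 cholesterol synthesis genes and targets of the sterol regulator SREBP2, 2 had an unadjusted p under 0.05, both higher (background 1.98%), and the median difference was 0.08. The count was 0 without HFD replicate 1 or HLJDD replicate 1, and 1 without HFD replicate 3 or 4 or HLJDD replicate 4. It was 1 as deposited, 0 with equal sums and 4 with equal sums without mitochondrial transcripts. In that last fit the list's median was 0.16 and that of all genes 0.083. The 2 of the main fit were the isomerase gene Idi1 (1.70 ± 0.29 and 2.58 ± 0.72, log2 difference 0.39, SE 0.15) and the farnesyl diphosphate synthase gene Fdps (13.0 ± 1.79 and 16.4 ± 2.46, log2 difference 0.32, SE 0.13). Their ND means were higher, at 12.4 ± 5.68 and 38.7 ± 10.98 (n = 3). Within ND both genes fell from replicate 1 to replicate 3, as the ileal gene Fabp6 did. The part of the stretch of gut in these ND levels was not tested. Mvk, the mevalonate kinase gene, was at 3.28 ± 0.74 and 4.08 ± 0.40, and Sc5d, which acts late in the pathway, at 26.7 ± 1.62 and 23.6 ± 2.24.

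Of 30 fat absorption and chylomicron genes, 1 was higher and 1 lower at an unadjusted p under 0.05, with a median difference of -0.06 that turned positive under the other 4 scalings (0.019 as deposited to 0.051 with equal sums). The 2 are enzymes of the same step, the addition of the first acyl chain to glycerol 3-phosphate. Gpat3 was at 55.6, 58.9, 57.8 and 60.1 in HFD and 51.8, 39.8, 53.2 and 51.1 in HLJDD (log2 difference -0.25, SE 0.11). Gpat4, at a lower level, was at 2.30, 2.67, 2.83 and 3.18 in HFD and 3.62, 3.21, 4.05 and 3.22 in HLJDD (log2 difference 0.27, SE 0.10). Neither pair of groups overlapped in scaled FPKM, and both did as deposited. Under the other 4 scalings 0 of the 30 genes were lower at an unadjusted p under 0.05. The difference between the 2 genes' differences was not tested. Apoa1, an apolipoprotein of chylomicrons and HDL, was at 11307, 11794, 10293 and 10593 in HFD and 9052, 8019, 9129 and 9593 in HLJDD, also apart (log2 difference -0.30, SE 0.13), a difference that was 0.063 after quantile normalization. Tm6sf2, which acts in loading lipid onto lipoproteins, was at 212.3 ± 11.5 and 181.0 ± 18.7 (log2 difference -0.23, SE 0.10).

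In fatty acid oxidation and ketogenesis 0 of 40 genes had an unadjusted p under 0.05, and the median difference of -0.03 was positive under the other 4 scalings (0.028 to 0.077) and without HFD replicate 3 or 4 or HLJDD replicate 2 or 3 (up to 0.10). Eci1, an isomerase for unsaturated acyl chains, was lower in every HLJDD library than in any HFD library (75.3 ± 3.04 and 66.3 ± 4.84, log2 difference -0.18, SE 0.086). Etfa, an electron carrier of the same pathway, was at 33.5 ± 2.38 and 29.6 ± 3.89, and Angptl4, a lipoprotein lipase inhibitor and PPAR target, at 6.93 ± 1.29 and 8.56 ± 1.94. Both had overlapping groups.

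Chaperone genes of the heat shock response were higher in HLJDD. Of 23 tested, 5 had an unadjusted p under 0.05, all with a higher mean (background 1.98%), and 7 had all HLJDD libraries above all HFD libraries (background 2.11%). The 5 became 3 as deposited, with equal sums or without HLJDD replicate 1, and 8 with equal sums without mitochondrial transcripts. The median difference was 0.19, and 20 of 23 were positive. Hspa1a, an inducible HSP70 gene, passed the filter through HLJDD alone. Hsph1, an HSP110 chaperone that reloads HSP70 (chromosome 5, 149616843 to 149636498), was at 1.82, 3.63, 3.56 and 3.51 in HFD and 6.27, 5.58, 5.99 and 6.32 in HLJDD. Its means were 3.13 ± 0.87 and 6.04 ± 0.34, a ratio of 1.93 and a log2 difference of 0.80 (SE 0.16, limma adjusted p = 0.92). Without HFD replicate 1, which was by far the lowest, the log2 difference was 0.62 and the limma adjusted p 0.27. ND stood at 2.82, 3.28 and 3.22, within the HFD range.

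Bag3, an HSP70 co-chaperone of selective autophagy, was at 9.81, 9.44, 10.2 and 11.1 in HFD and 12.4, 14.3, 11.95 and 13.1 in HLJDD (log2 difference 0.32, SE 0.085). Hsp90aa1, the inducible HSP90, was at 46.0 ± 7.45 and 58.5 ± 2.89 (log2 difference 0.35, SE 0.13), Ahsa1, which activates the HSP90 ATPase, at 23.7 ± 2.88 and 29.4 ± 2.16 (log2 difference 0.30, SE 0.11), and Stip1, which hands clients from HSP70 to HSP90, at 25.2 ± 2.35 and 29.8 ± 1.00 (log2 difference 0.23, SE 0.088). In all 5 the groups did not overlap in scaled FPKM. As deposited, only those of Hsph1 stayed apart. HLJDD replicate 2 then lay inside the HFD range of Bag3, Ahsa1, Hsp90aa1 and Stip1. HFD replicate 1 was the lowest library of the 8 in Hsph1, Ahsa1, Hsp90aa1 and Stip1, and without it the list's median was 0.14. The Hsph1 promoter window is shown for the heat shock factor motif, searched as TTCNNGAA and GAANNTTC on both strands, with the match in capitals (RefSeq, GRCm38.p6, chr5:149636316-149636565, minus strand). The table holds 2 windows for Hsph1, both with the match, and the one shown ends at the inner transcript start, 149636315, which lies 183 bases inside the gene span given above.
Hsph1: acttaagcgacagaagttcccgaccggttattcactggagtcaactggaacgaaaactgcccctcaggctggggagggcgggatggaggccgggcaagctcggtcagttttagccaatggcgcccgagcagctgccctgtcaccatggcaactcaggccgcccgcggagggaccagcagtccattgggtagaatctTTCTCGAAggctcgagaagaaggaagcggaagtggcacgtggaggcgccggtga
The match began 54 bases before that transcript start. Such a match stood in 8 of the 17 tested heat shock genes that the table holds (47.1%) and in 14.5% of all genes in it.

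Antigen processing genes were lower in HLJDD. Of 21 genes of the class I pathway, 8 had an unadjusted p under 0.05, all with a lower mean (background 2.47%), and 3 had all HLJDD libraries below all HFD libraries (background 1.72%). The 8 became 3 as deposited, with quantile normalization or with equal sums without mitochondrial transcripts, and 0 with equal sums, where 19 of all genes were lower at that level. Leaving out 1 library gave 3 (without HFD replicate 1 or HLJDD replicate 1), 4 (without HFD replicate 2 or HLJDD replicate 3) and up to 12 (without HFD replicate 4). The median difference was -0.29, and 20 of 21 were negative. Psmb8, an immunoproteasome subunit (chromosome 17, 34198195 to 34201454), was at 98.0, 111.1, 84.6 and 68.5 in HFD and 56.3, 56.0, 53.4 and 70.0 in HLJDD (log2 difference -0.60, SE 0.16, limma adjusted p = 0.92). The lowest HFD library, replicate 4, lay below the highest HLJDD library, also replicate 4. Psmb9, another immunoproteasome subunit, was at 40.3 ± 11.8 and 26.0 ± 3.55 (log2 difference -0.58, SE 0.21) and Tap2, part of the peptide transporter, at 16.3 ± 2.30 and 12.03 ± 1.54 (log2 difference -0.41, SE 0.12), both with overlap. H2-T23, a non-classical class I gene, was at 165.4, 192.8, 142.3 and 129.7 in HFD and 119.7, 108.1, 123.2 and 120.4 in HLJDD (log2 difference -0.40, SE 0.13), and Tapbp, the tapasin gene that loads peptide, at 70.8 ± 8.06 and 58.2 ± 2.34 (log2 difference -0.27, SE 0.10), both apart. In ND, Psmb8 (105.7 ± 7.71), Tap2 (17.6 ± 1.03) and H2-T23 (234.9 ± 21.6) had higher means than either group. Class I genes resemble each other, so reads of single H2 genes may have been shared between copies.

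Interferon-gamma induced genes and guanylate binding proteins lay the same way, with all 15 tested negative and a median of -0.39, from -0.62 (without HFD replicate 4) to -0.18 (without HFD replicate 2). Of these, 3 had an unadjusted p under 0.05, all lower, which became 1 without HFD replicate 2 or 3 and 9 without HFD replicate 4. Socs1 and Gbp3 passed the filter through HFD alone. Without the filter all 26 genes were lower in mean, with a median of -0.26 and 2 at an unadjusted p under 0.05 (2.25% of all genes then tested). Ido1, a tryptophan degrading enzyme, was at 15.6, 14.9, 10.5 and 8.44 in HFD and 3.36, 9.51, 2.49 and 4.66 in HLJDD (log2 difference -1.25, SE 0.33). Socs1, the feedback inhibitor of interferon signalling, was at 2.21, 1.28, 1.32 and 0.844 in HFD and 0.412, 0.661, 0.827 and 0.497 in HLJDD (log2 difference -0.57, SE 0.17). Igtp, an interferon induced GTPase, was at 4.27, 36.8, 14.9 and 4.85 in HFD and 3.49, 3.67, 2.64 and 5.24 in HLJDD (log2 difference -1.32, SE 0.58). HFD replicates 2 and 3 alone stood out in Igtp, and without HFD replicate 2 its log2 difference was -0.76. Gbp2, a guanylate binding protein, was at 2.43 ± 1.19 and 1.36 ± 0.31 (log2 difference -0.49, SE 0.22). Among 35 interferon-stimulated genes of the broader kind, 1 was higher and 1 lower at an unadjusted p under 0.05, with a median of -0.17. The 2, chosen for naming after their values were seen, were Parp14 (mean 6.27 in HFD and 7.29 in HLJDD) and Trim30d (25.7 and 20.5).

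Promoter windows of 3 interferon-gamma induced genes are shown because these genes share the repeat of the interferon-stimulated response element, searched as 2 copies of TTTC with 2 bases between them on both strands and given in capitals where it stands (RefSeq, GRCm38.p6: Socs1 chr16:10785537-10785786, minus strand; Igtp chr11:58199306-58199555, plus strand; Gbp2 chr3:142620413-142620662, plus strand).
Socs1: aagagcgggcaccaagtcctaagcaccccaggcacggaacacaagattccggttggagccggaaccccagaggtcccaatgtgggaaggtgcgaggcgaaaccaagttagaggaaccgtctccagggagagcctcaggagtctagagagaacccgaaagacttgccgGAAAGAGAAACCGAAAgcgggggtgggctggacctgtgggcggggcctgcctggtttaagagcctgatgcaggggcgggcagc
Igtp: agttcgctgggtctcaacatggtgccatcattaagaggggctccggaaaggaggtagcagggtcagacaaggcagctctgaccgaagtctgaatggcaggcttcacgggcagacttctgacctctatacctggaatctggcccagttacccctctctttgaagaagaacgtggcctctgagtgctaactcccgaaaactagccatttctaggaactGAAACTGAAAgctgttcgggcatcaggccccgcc
Gbp2: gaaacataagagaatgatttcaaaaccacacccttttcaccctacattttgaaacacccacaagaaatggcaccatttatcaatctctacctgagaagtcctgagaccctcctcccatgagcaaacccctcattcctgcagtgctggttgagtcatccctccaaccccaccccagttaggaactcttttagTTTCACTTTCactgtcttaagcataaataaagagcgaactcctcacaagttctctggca
Socs1 has 2 overlapping matches, and Igtp and Gbp2 have 1 each, between 83 and 34 bases before the start. The repeat was found in 7 of the 11 tested genes of the interferon-gamma list that the table holds (63.6%), in 3 of 18 class I pathway genes (16.7%) and in 3.46% of all genes in it.

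Markers of T cells and intraepithelial lymphocytes lay lower beside these lists. Of 18 listed genes held in the files, 7 passed the filter, and Nkg7 and Xcl1 did so through HFD alone, which fixed that they were lower in HLJDD. Without the filter 17 of the 18 had a lower mean in HLJDD, with a median of -0.21, and 6 had an unadjusted p under 0.05, all lower (2.25% of all genes then tested). Nkg7, a granule protein of cytotoxic lymphocytes (chromosome 7, 43437138 to 43438246) that ranked 3 of all genes by p, was at 1.60, 1.40, 1.27 and 1.30 in HFD and 0.767, 0.778, 0.627 and 0.630 in HLJDD (log2 difference -0.49, SE 0.086, limma adjusted p = 0.92). Those values rest on 33 to 41 reads per HFD library and 15 to 26 per HLJDD library. Xcl1, a chemokine of activated lymphocytes, was at 2.05, 1.1003, 1.89 and 0.942 in HFD and 0.463, 0.651, 0.728 and 0.643 in HLJDD (log2 difference -0.60, SE 0.16). Gzmb, the granzyme B gene, was at 3.86, 4.15, 2.55 and 1.99 in HFD and 1.08, 2.18, 1.13 and 0.390 in HLJDD (log2 difference -0.94, SE 0.26), with 1 HLJDD library inside the HFD range. Gzma (8.51 ± 1.29 and 5.196 ± 2.78, log2 difference -0.75, SE 0.34) and Cd3g, part of the T cell receptor complex (3.21 ± 1.01 and 2.27 ± 0.65, log2 difference -0.35, SE 0.20), overlapped. Summed over the 18 listed genes that the table holds, the markers ran from 23.2 to 29.3 scaled FPKM in HFD and from 9.51 to 20.4 in HLJDD, and none was at 0 in all 8 libraries. Their part in the interferon-gamma and class I values was not tested.

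**Figure D3:**
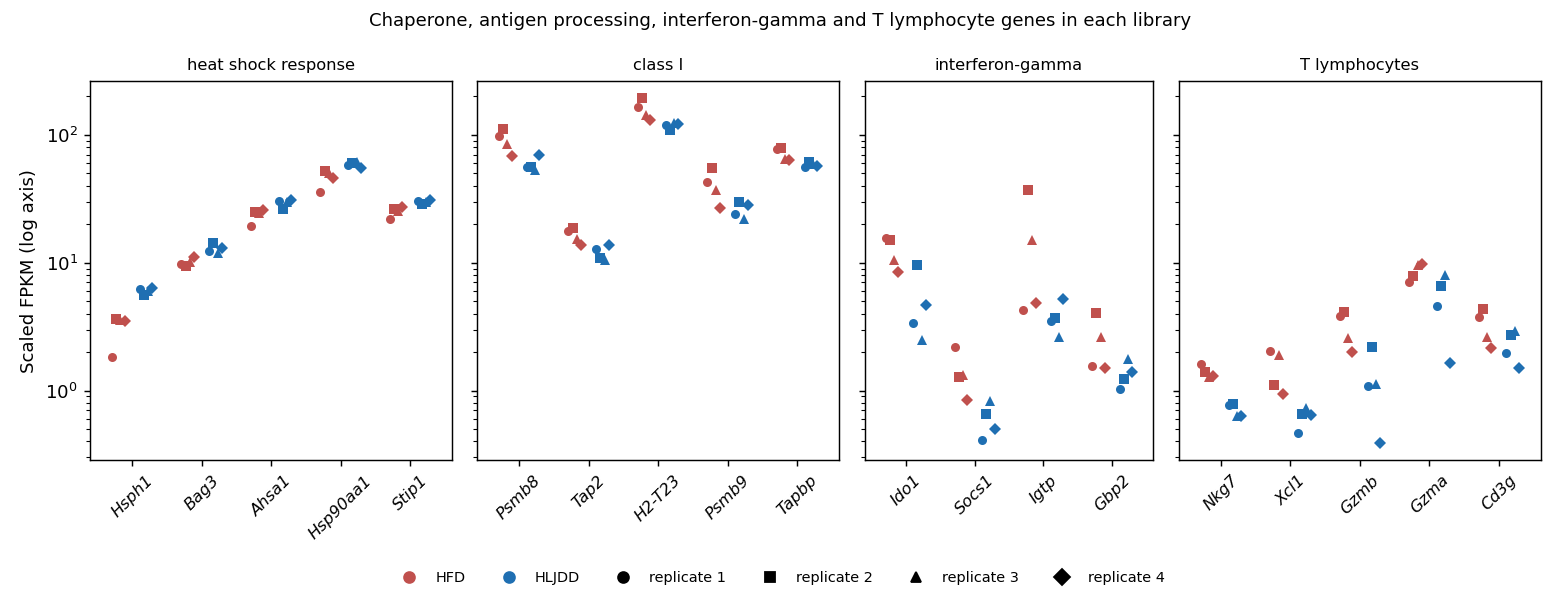
Scaled FPKM on a log axis of 5 heat shock genes, 5 class I pathway genes, 4 interferon-gamma induced genes and 5 T lymphocyte genes in each HFD (red) and HLJDD (blue) library. In the heat shock genes HLJDD lies above HFD without overlap on this scale, though as deposited only in Hsph1. In Igtp the HFD libraries spread from 4.27 to 36.8 and HLJDD from 2.64 to 5.24.

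Class II antigen presentation genes, which B cells and dendritic cells express most and which interferon-gamma induces in enterocytes, had lower means in all 13 tested and 0 with an unadjusted p under 0.05. The median of -0.37 rested on single libraries, at -0.13 without HFD replicate 2 and -1.04 without HFD replicate 4, where 7 had an unadjusted p under 0.05, all lower. H2-Ab1, a class II chain, was at 198.3, 315.9, 133.1 and 32.9 in HFD and 83.1, 26.0, 97.4 and 68.2 in HLJDD (log2 difference -1.05, SE 0.68), so the HFD range took in every HLJDD library except replicate 2. H2-DMb1, a peptide loading chain, was at 19.5 ± 17.3 and 6.23 ± 2.55 (log2 difference -1.14, SE 0.61). Ifi30, a lysosomal thiol reductase, was the 1 member whose groups did not overlap (139.2 ± 1.48 and 127.8 ± 4.20, log2 difference -0.12, SE 0.078). B cell markers were uneven in the same way, with sums from 3.68 to 322.5 over the HFD libraries and 6.97 to 122.1 over HLJDD, and their part in the class II values was not tested.

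Of 21 epithelial genes that microbes induce, 1 was higher and 2 lower at an unadjusted p under 0.05, and the median of 0.24 was -0.012 without HLJDD replicate 2. Without HFD replicate 2 or HLJDD replicate 2 the number higher was 2, and without HLJDD replicate 4 it was 3. Il18, an epithelial cytokine, was at 14.7, 23.5, 21.4 and 23.1 in HFD and 28.5, 26.8, 27.9 and 28.4 in HLJDD, with no overlap (log2 difference 0.43, SE 0.14). Sprr1a, a cornified envelope protein that bacteria induce in gut epithelium, was at 16.6, 5.12, 6.37 and 6.37 in HFD and 3.67, 4.64, 2.33 and 2.82 in HLJDD (log2 difference -1.03, SE 0.32). The second lower gene is Ido1, described above. Tnfaip3, an inhibitor of NF-kappa-B, was at 3.51 ± 0.55 and 4.51 ± 0.91 (log2 difference 0.28, SE 0.14).

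Goblet cell genes were lower in mean in all 13 tested, with a median of -0.21 and 2 at an unadjusted p under 0.05 (background 2.47%). The 2 became 0 with equal sums, 1 without HFD replicate 1 or HLJDD replicate 1 or 4, and 4 without HLJDD replicate 2. Clca1, a secreted mucus processing protein, was at 46.0, 61.0, 54.4 and 54.3 in HFD and 40.0, 42.9, 44.7 and 36.8 in HLJDD, with no overlap (log2 difference -0.38, SE 0.11). Fcgbp, a mucus protein that binds to MUC2, was at 150.5, 131.5, 136.6 and 147.8 in HFD and 94.8, 144.4, 103.0 and 94.8 in HLJDD (log2 difference -0.39, SE 0.15). HLJDD replicate 2 alone lay in the HFD range of Fcgbp, and the list's median was -0.40 without that library and -0.069 without HLJDD replicate 4. Zg16, a lectin of the mucus layer, was at 3023 ± 668.8 and 2263 ± 686.2, and Ccl6, a chemokine, at 16.5 ± 4.89 and 11.7 ± 3.77.

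Among 16 clock genes and clock outputs, 2 had an unadjusted p under 0.05, both lower and both without overlap, and 0 had as deposited or with equal sums. Dbp, a transcription factor whose RNA swings strongly over the day, was at 37.9, 45.1, 47.8 and 50.1 in HFD and 32.2, 19.8, 33.1 and 33.9 in HLJDD (log2 difference -0.61, SE 0.18). Nr1d2, the REV-ERB beta repressor, was at 25.3, 27.9, 27.4 and 23.5 in HFD and 19.98, 22.03, 19.9 and 19.3 in HLJDD (log2 difference -0.34, SE 0.086). Cry1, a clock repressor, was at 4.23 ± 0.12 and 3.50 ± 0.92 with overlap, and the list's median was -0.10. The hour of sampling is not in the labels used here.

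Cell cycle and DNA replication genes had a higher mean in 38 of 39 cases, and 0 had an unadjusted p under 0.05 (2 higher without HFD replicate 4 or HLJDD replicate 2, and 8 higher and 4 lower without HFD replicate 1 and HLJDD replicate 2). Their median was 0.20, and it was 0.0012 without HFD replicate 1, the lowest HFD library in the 3 genes named here. Rrm2, a ribonucleotide reductase subunit, was at 1.52, 4.65, 4.26 and 4.15 in HFD and 5.56, 4.22, 6.89 and 4.74 in HLJDD. E2f1, an S phase transcription factor, was at 0.783 ± 0.21 and 1.14 ± 0.23, and Cdc6, a replication licensing factor, at 0.907 ± 0.14 and 1.15 ± 0.12. The groups of Cdc6 did not overlap, those of Rrm2 and E2f1 did.

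Genes that mark the stretch of gut and the muscle wall varied with single libraries. Of 12 proximal genes 0 had an unadjusted p under 0.05, and their median of -0.17 ran from -0.34 (without HFD replicate 2) to -0.033 (without HFD replicate 4) and was -0.0011 without HFD replicate 1 and HLJDD replicate 2. Among them were Fabp1, the liver-type fatty acid carrier, at 12810 ± 1741 and 10643 ± 2910, S100g, a calcium carrier, at 16.4 ± 5.58 and 10.8 ± 8.45, and Slc2a2, the GLUT2 gene, at 77.4 ± 22.6 and 65.1 ± 24.6. Of 15 distal genes 1 had an unadjusted p under 0.05, with a lower mean, and the median of -0.08 was 0.032 with equal sums, 0.020 with equal sums without mitochondrial transcripts and 0.045 without HLJDD replicate 4. That gene was Fabp6, the ileal bile acid carrier, at 5.41, 3.41, 2.24 and 1.21 in HFD and 1.03, 0.744, 1.91 and 0.201 in HLJDD (log2 difference -1.01, SE 0.36), where ND held 8506, 5689 and 359.5. ND differed in this ileal gene far more than HLJDD did, so in the ND levels given here the stretch of gut and the ND label cannot be told apart. Slc51b, a bile acid exporter subunit, was at 201.4 ± 35.5 and 174.1 ± 54.9. Smooth muscle genes were lower in mean in all 13 tested with 0 at an unadjusted p under 0.05, and their median was -0.40, from -0.68 without HFD replicate 1, where 10 had an unadjusted p under 0.05, to -0.16 without HFD replicate 2. Tpm2, a tropomyosin, was at 42.0 ± 19.8 and 27.0 ± 8.26. Cnn1, the calponin of the contractile fibres, was at 25.2 ± 10.8 and 16.9 ± 6.29, and Mylk, the kinase that starts contraction, at 46.8 ± 11.1 and 37.6 ± 2.22.

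**Figure D4:**
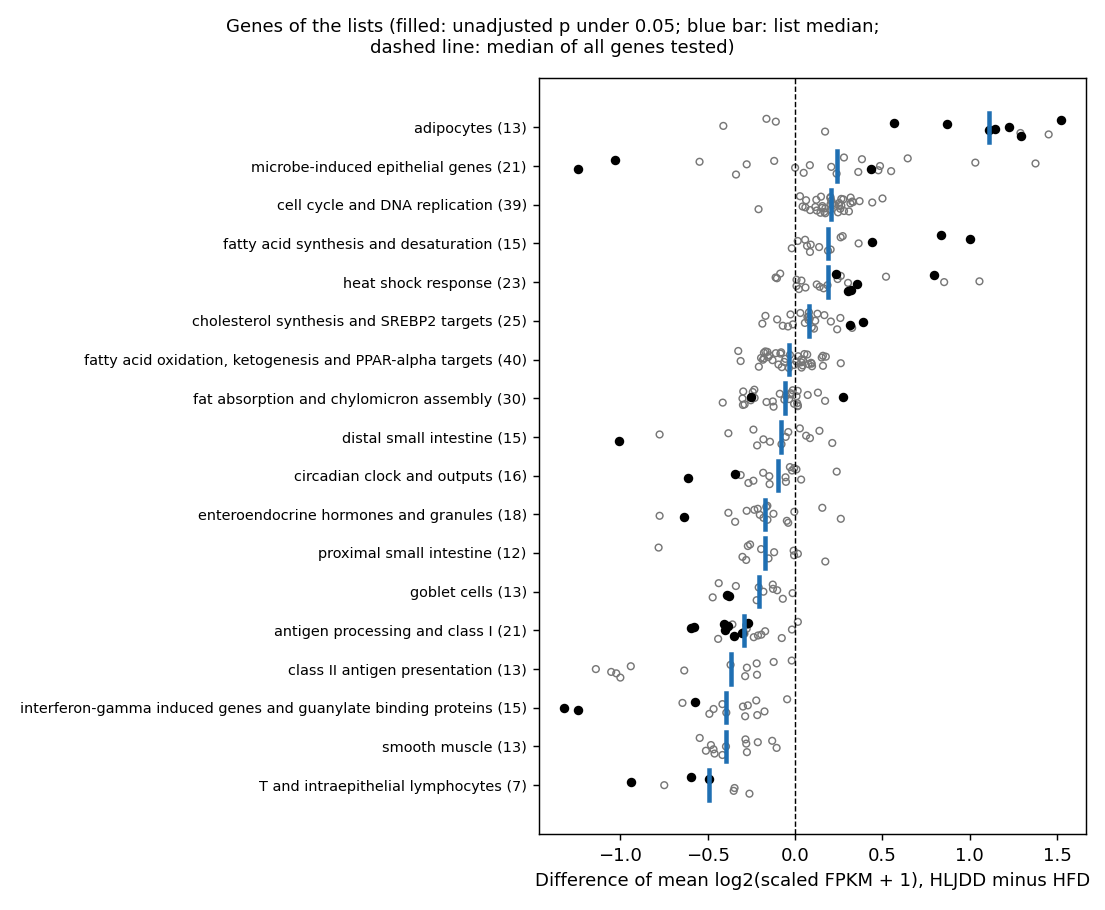
Difference of mean log2(scaled FPKM + 1), HLJDD minus HFD, for the tested genes of 18 lists (circles, filled where the unadjusted p is under 0.05, number of genes in brackets), with the list's median as a blue bar and the median of all genes as a dashed line. Adipocyte genes lie farthest to the right (median 1.11) and the 7 T lymphocyte genes that passed the filter farthest to the left (median -0.49). Of these 7, Nkg7 and Xcl1 passed through HFD alone, which fixed that they were lower. Without the filter the T lymphocyte median was -0.21, and class II genes had the lowest median (-0.37).

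The remaining genes among the 10 of smallest p belong to none of these groups. Arl13b, a GTPase of primary cilia (chromosome 16, 62793308 to 62847055), was at 4.12, 3.70, 4.08 and 3.48 in HFD and 2.81, 2.47, 2.90 and 2.39 in HLJDD, and ND (3.86 ± 0.11) lay at the HFD level. Ell2, a transcription elongation factor, was at 39.3, 30.5, 32.8 and 29.4 in HFD and 24.0, 22.9, 22.3 and 23.5 in HLJDD, a group with an SD of 0.75. Usp36, a nucleolar deubiquitinase, was at 1.51, 1.53, 1.47 and 1.53 in HFD and 2.12, 1.99, 2.13 and 2.31 in HLJDD. In each of the 3 the groups were apart, and ND of Usp36 (1.20, 1.71 and 1.75) lay below all HLJDD libraries. Pim1, a serine/threonine kinase induced by cytokines, was at 28.4, 23.3, 24.4 and 23.8 in HFD and 17.5, 19.9, 16.1 and 19.1 in HLJDD. Hycc2, a hyccin family gene whose product helps to place a phosphoinositide kinase at the plasma membrane, was at 8.65 ± 0.88 and 6.36 ± 0.39. Their log2 differences ran from -0.49 to 0.32, with unadjusted p from 0.000939 to 0.00178 and a limma adjusted p of 0.92 for all 5.

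**Figure D5:**
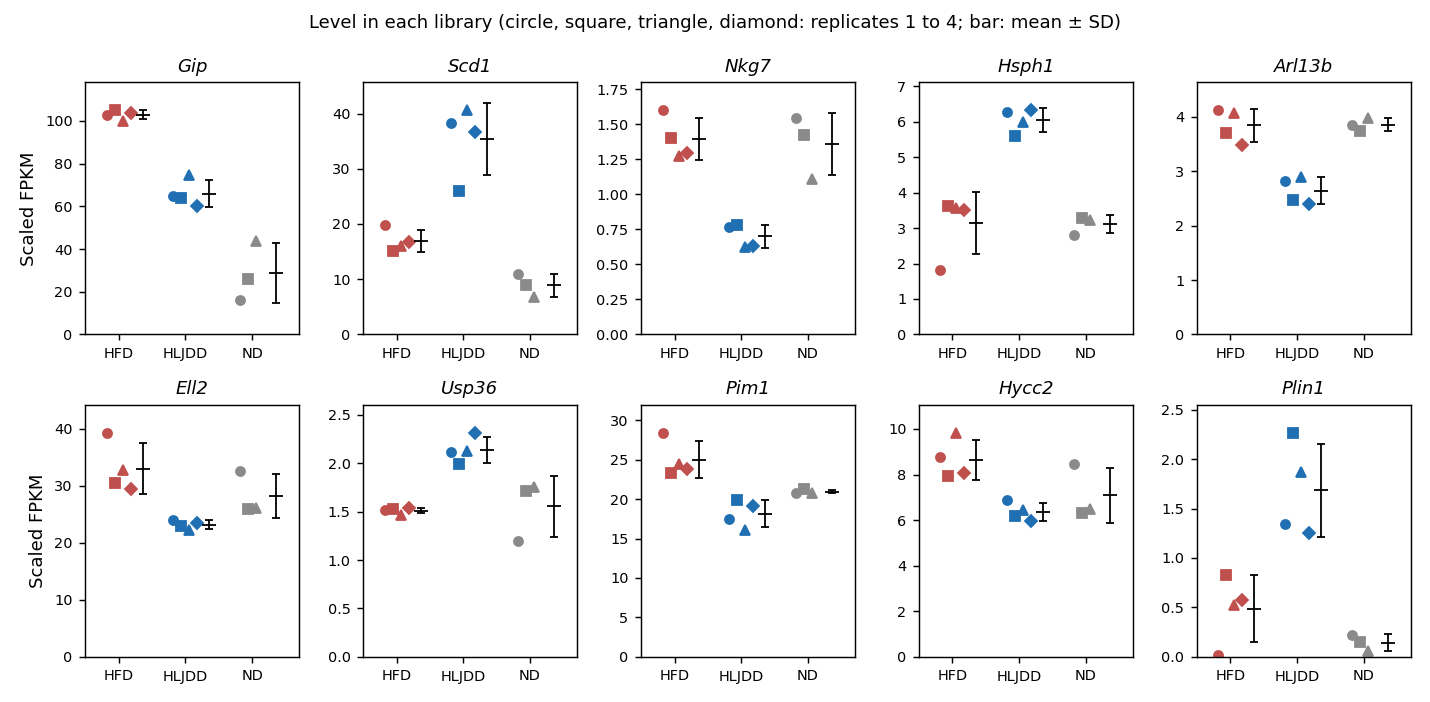
Scaled FPKM in each library (linear axes from 0) of the 10 genes with the smallest unadjusted p, for HFD (red), HLJDD (blue) and ND (grey), with the mean ± SD beside each group. HFD and HLJDD libraries do not overlap in any of the 10 panels, but the genes were picked by p from these same libraries. Nkg7 passed the filter through HFD alone and Plin1 through HLJDD alone, so these 2 had to differ. The ND mean lies below both other means in Gip, Scd1, Hsph1 and Plin1.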

How the data were processed

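Per the labels' protocols, RNA was extracted with TRIzol, and a VAHTS Universal V6 kit gave the libraries. The submitters' processing notes name fastp, HISAT2, HTSeq, R 3.2.0 and the mm10 genome. Not given in the sources used here: annotation and strand setting. The authors deposited FPKM per gene symbol, and single files and series table agreed (0 differing values).

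Each FPKM value is a whole number of reads times a step, so whole reads were recovered for all 24294 symbols, within 0.0019 reads. FPKM was scaled by median ratios, and log2(scaled FPKM + 1) was tested two-sided with limma 3.58.1 (R 4.3.3) and its variance trend over 8 libraries grouped by title, with Benjamini-Hochberg adjustment and a threshold of 0.05. The fit was tested on simulated data. Overlapping or near-identical genes may share reads.

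Members, the 55 gene lists, 18 of them reported in full, and the alternatives were chosen with earlier results of these data known. The genes named are the 10 smallest p (no gene passed the threshold, and unnamed models, pseudogenes and receptor segments were left out), up to 5 members of smallest p per reported list, and 7 hormones, in all 80 genes. Gene positions and promoters come from RefSeq tables of GRCm38.p6, which hold a position for 79 and a promoter window for 67 of the 80. Alternatives were 5 other scalings or pseudocounts, 2 filters, all 11 libraries, robust variance, library weights, a replicate block, limma-voom on recovered reads, and leaving out libraries.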

Additional observations from a re-analysis of the deposited data

Results flagged for a closer look

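Of 160 groups of 4 libraries checked among the named genes, 14 held a library far from the other 3, where chance alone gives about 1 in 20. HFD replicate 1 was the library in 5 of them and HLJDD replicate 2 in 7, the 2 libraries with the highest mitochondrial shares. In scaled FPKM, HFD replicate 1 was low in the chaperone Hsph1 (1.82) and the nucleotide enzyme Rrm2 (1.52) and high in Angptl4 (8.86), Sprr1a (16.6) and the lectin Zg16 (4020). HLJDD replicate 2 was high in the hormone Sct (60.9) and the mucus genes Fcgbp (144) and Zg16 (3290), and low in Scg3 (0.389), the sterol enzyme Sc5d (20.3), Gpat3 (39.8) and the clock output Dbp (19.8). HFD replicate 4 was high in Ghrl (12) and Eci1 (79.8). No library was left out of the main values for this.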

How the results depend on the processing

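With 4 libraries a group, limma called 0 genes in the main fit and under each other scaling, pseudocount, filter and variance setting, with all 11 libraries, with limma-voom and without any 1 library. Exceptions were the fit without HFD replicate 1 and HLJDD replicate 2 (1 called, 1 higher, Scd1, with 865 at an unadjusted p under 0.05) and both fits with library weights. Default weights called 6497 (3142 higher, 3355 lower, 6925 unadjusted), but their estimate did not converge and gave HFD replicate 3 and HLJDD replicate 1 96.1% of the weight. A gene-by-gene estimate, added after the data were seen, called 1149 (521 higher, 628 lower, 3397 unadjusted), with 78.7% of the weight in those libraries. Gip then stood at -0.62 in both, past the threshold. Genes at an unadjusted p under 0.05, 465 in the main fit, were 119 as deposited, 55 with equal sums, 928 without a filter (23588 genes tested), 251 at a mean of at least 5 FPKM, and 231 to 864 without 1 library.

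Same-numbered libraries correlated at -0.17, 0.10, 0.14 and 0.34, and 1 of 4 matched its own number best, so the numbers were not taken as pairs. With a replicate block, 0 genes were called and 539 had an unadjusted p under 0.05, and the Gip log2 difference of -0.64 had an adjusted p of 0.835 (limma).

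Signs that turned were those of Cck (0.024 as deposited, 0.052 with equal sums, 0.043 with equal sums without mitochondrial transcripts, -0.27 to 0.16 without 1 library), Apoa1 and Fabp1 (0.063 and 0.053 after quantile normalization), Sst (-0.27 and -0.25 with the 2 kinds of library weights, -0.40 without both libraries of high mitochondrial share, -0.28 to 0.37 without 1 library), Gcg (-0.094 without both, -0.15 to 0.61 without 1 library) and Pyy (-0.79 to 0.045 without 1 library). Medians of lists that turned were those of fat absorption (0.019, 0.051, 0.045 and 0.036 under the 4 other scalings), fatty acid oxidation (0.045, 0.077, 0.071 and 0.028 under the same, 0.048 without both libraries, 0.0066 to 0.10 without HFD replicate 3 or 4 or HLJDD replicate 2 or 3), microbe-induced genes (-0.025 with default weights, -0.012 without HLJDD replicate 2) and distal genes (0.032 and 0.020 with both kinds of equal sums, 0.028 and 0.038 with weights, 0.045 without HLJDD replicate 4). The difference in mitochondrial share, -0.95 percentage points, ran from -8.14 to 3.17 without 1 library. In the fits not named the cause was not tested.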

Other observations

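Among digestion and transport lists that the text has not described, 10 lipid digestion enzymes held 1 gene lower at an unadjusted p under 0.05. So did 13 sterol transport genes and targets of the sterol receptor LXR. The 15 iron, haem, folate and HIF genes held 1 higher and 1 lower. Several other pathway lists held none. Of 22 genes of sugar digestion, transport and fructolysis, 21 of protein digestion and amino acid transport, 38 of retinoid and xenobiotic metabolism, 20 of the NRF2 and glutathione response, 43 nuclear-encoded genes of oxidative phosphorylation and 59 cytosolic ribosomal protein genes, 0 had an unadjusted p under 0.05, and their medians were 0.02, -0.06, -0.09, 0.01, -0.07 and 0.04. Over the 37 lists not described in full, the medians ran from -0.32 to 0.17, with at most 2 members each at an unadjusted p under 0.05 in either direction. The lowest of these medians was that of 16 Paneth cell genes, of which 1 was lower at an unadjusted p under 0.05, and summed scaled FPKM ran from 178.5 to 585.3 in HFD and from 143.6 to 708.4 in HLJDD.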
